A study of Mus musculus with 10 samples.

Results

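The heat shock response genes examined here are 10 chaperone and co-chaperone genes, Hspa1a, Hspa1b, Hspa8, Dnajb1, Hsph1, Hspb1, Hsp90aa1, Hspd1, Hspe1 and Bag3, taken by gene symbol from the array annotation. They were read by 23 probe sets of 45101 on the array, and 20 of these, at least 1 for each of the 10 genes, lay above background and were compared. Islets came from 5 wildtype female mice and from 5 female littermates heterozygous for Men1, the gene of the tumour suppressor menin, all aged 5 weeks and with the strain labelled as C57 on a 129 background. About 100 islets were pooled from each mouse and run on 1 array, so that each array is a separate animal. The labels name no treatment, and how the Men1 allele was made is not given in them. Values are log2 expression, differences are heterozygous minus wildtype, and a level is compared only between arrays for the same probe set, never between genes.

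Cells answer heat, oxidants and damaged protein by activating heat shock factors, which bind repeated GAA units in promoters and raise transcription of chaperone genes. The induced proteins hold unfolded chains, refold them or pass them on for degradation, while related constitutive chaperones fold new proteins at all times. Islet beta cells fold large amounts of secreted protein, and the isolation of islets is itself known to induce stress genes.

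The promoters of 8 of the 10 genes were found in the RefSeq table (GRCm38.p6). Windows of 250 bases before to 50 bases after each start were searched on both strands for 2 neighbouring heat shock units, GAANNTTC or TTCNNGAA, and for 3 units in a row, GAANNTTCNNGAA or TTCNNGAANNTTC, in which the 2-unit matches overlap. A 2-unit match was present for 7 of the 8 genes, in 8 of their 11 listed start windows, against 15.1% of all 32851 windows. A 3-unit match was present for 3 genes, Hsph1, Hspd1 and Hspe1, in 4 of the 11 windows, against 0.603% of all windows. The Hspd1 and Hspe1 matches are the same run read from opposite strands, and the 2 Hsph1 windows overlap. The 150 bases before the first listed start of 5 genes are shown, because these genes carry the patterns described further on. The sequences run 5' to 3' on the gene's strand, with 2-unit matches in capitals.
Hspa1a: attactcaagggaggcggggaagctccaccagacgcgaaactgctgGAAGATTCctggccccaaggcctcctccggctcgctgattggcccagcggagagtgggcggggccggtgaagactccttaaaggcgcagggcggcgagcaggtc
Hspa1b: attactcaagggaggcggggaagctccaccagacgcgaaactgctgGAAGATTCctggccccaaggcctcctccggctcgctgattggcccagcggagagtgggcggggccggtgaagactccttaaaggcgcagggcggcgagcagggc
Hspb1: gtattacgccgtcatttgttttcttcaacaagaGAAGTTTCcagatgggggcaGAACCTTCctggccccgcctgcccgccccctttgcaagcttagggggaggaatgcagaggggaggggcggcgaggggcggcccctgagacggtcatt
Hspe1: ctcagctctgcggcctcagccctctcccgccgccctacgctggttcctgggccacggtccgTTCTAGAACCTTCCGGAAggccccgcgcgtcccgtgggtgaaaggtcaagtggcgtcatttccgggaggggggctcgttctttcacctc
Dnajb1: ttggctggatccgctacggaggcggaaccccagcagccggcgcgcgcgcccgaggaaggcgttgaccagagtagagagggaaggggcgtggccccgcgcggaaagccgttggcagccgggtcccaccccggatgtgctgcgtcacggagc
The Hspa1a stretch (chr17:34972157-34972306, minus strand) and the Hspa1b stretch (chr17:34959239-34959388, minus strand) were identical at 149 of 150 bases, each with 1 match beginning 104 bases before the start. The Hspb1 stretch (chr5:135887769-135887918, plus strand) held 2 separate matches. In the Hspe1 stretch (chr1:55087998-55088147, plus strand) 3 overlapping matches formed one run. That run lies between the Hspe1 start and the second listed Hspd1 start, which have 215 bases between them and lead away from each other. The first listed Hspd1 start lies on the other side of the Hspe1 start, and its window held 0 matches. The Dnajb1 stretch (chr8:83608025-83608174, plus strand) held no match to these letters.

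Men1 itself, by its 1 probe set of 3 above background, stood at 6.25 to 7.21 in wildtype and 6.09 to 6.82 in heterozygous islets. The groups overlapped and differed by -0.47 (SE 0.20, exact permutation p = 0.0635, unadjusted limma p = 0.0396, limma adjusted p = 0.9999). Which part of Men1 is altered is not given, nor whether that probe set reads it, so it does not settle the labels. Between any pair of arrays of the series r was 0.962 to 0.988, and the array medians ran from 3.28 to 3.40. The fit used the 18567 probe sets whose log2 value exceeded 4 in 5 or more arrays. Of these, 0 passed an adjusted p of 0.05 with limma (percent called 0), and 760, or 4.09%, had an unadjusted p under 0.05. The only B and T lymphocyte markers above background, 2 of 12 (Ms4a1 and Cd79a), had a mean of 5.99 and 5.69 in heterozygous replicates 2 and 5, against 3.36 to 4.66 in the other 8 arrays. Markers that define islets were present, with a mean over 11 of 13 beta and alpha cell markers of 12.70 ± 0.22 in the wildtype group and 12.63 ± 0.23 in the heterozygous group (SD, 5 mice each).

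Heterozygous and wildtype islets could not be told apart by any of the 10 heat shock genes at this number of mice. Of the 20 probe sets, 0 passed an adjusted p of 0.05 with limma, 0 had an unadjusted p under 0.05 and 0 had groups that did not overlap. Over all probe sets, 4.09% had such a p (2.57% higher and 1.52% lower in heterozygous islets) and 0.700% had groups that did not overlap (0.528% higher and 0.172% lower). The heat shock probe sets were split into 9 with a difference above 0 and 11 below, where 56.4% of all probe sets were above 0. With the brightest probe set of each gene, 4 genes had a higher and 6 a lower mean in heterozygous islets. Their median difference was -0.030, beside 0.014 over 10538 genes, of which 54.4% had a higher mean. For the brightest probe sets every difference lay between -0.34 and 0.25, and limma's adjusted p was 0.9999 for each of the 20 probe sets. The smallest exact two-sided permutation p was 0.159, where 5 against 5 can reach 0.00794.

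**Figure D1:**
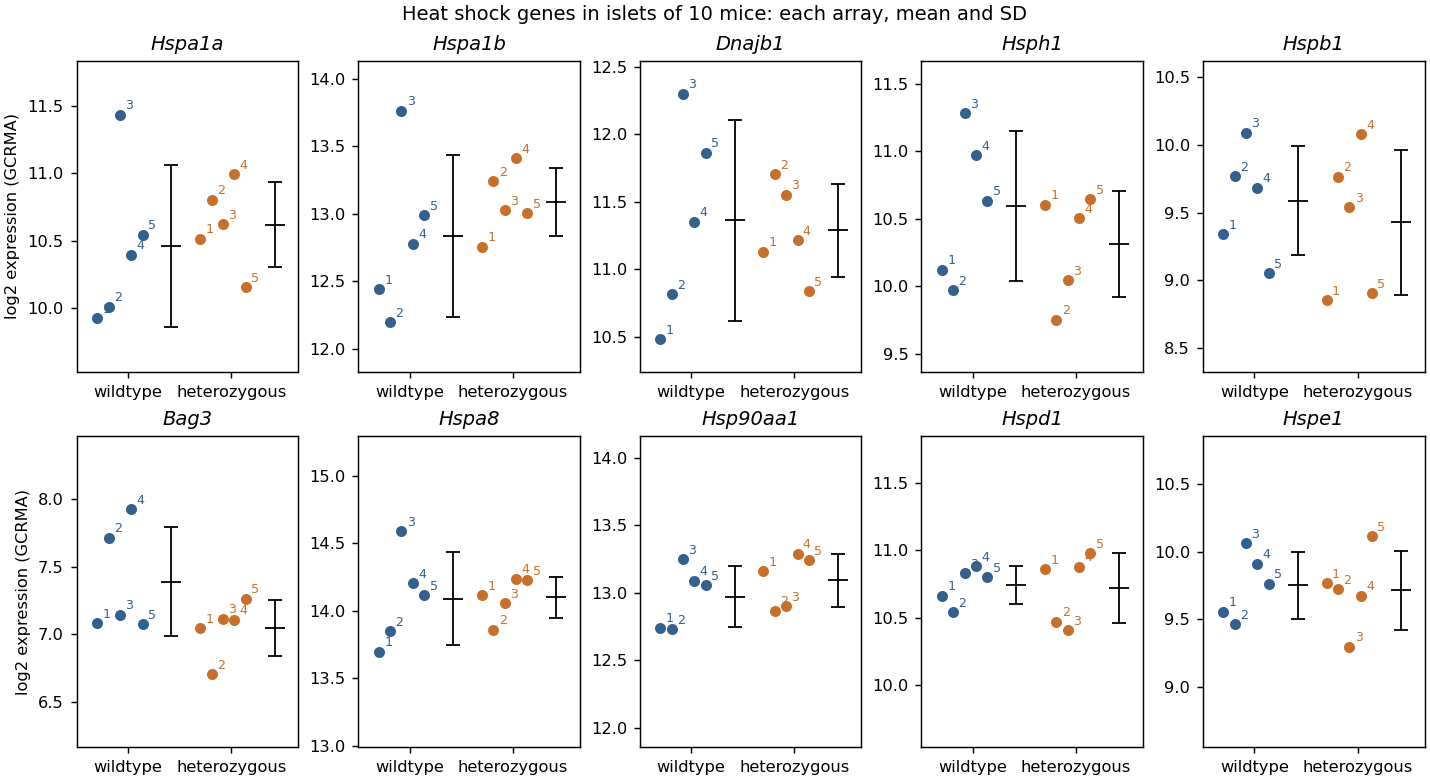
Log2 expression of the brightest probe set of each heat shock gene in islets of 5 wildtype (blue) and 5 heterozygous (orange) mice, numbered by replicate, with the mean and SD of each group beside the points; every panel spans the same number of log2 units. The groups overlap in every panel, and wildtype replicate 3 is the highest array for 6 of the 10 genes.

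Hspa1a and Hspa1b encode the stress-induced cytosolic HSP70 proteins, which are nearly identical in sequence. Hspa1a stood at 9.93, 10.01, 11.43, 10.40 and 10.54 in wildtype replicates 1 to 5 and at 10.52, 10.80, 10.62, 10.99 and 10.16 in heterozygous replicates 1 to 5. Wildtype replicate 3 was the highest array and wildtype replicates 1 and 2 the lowest, so that the heterozygous values fell inside the wildtype range. The means were 10.46 ± 0.60 and 10.62 ± 0.32 (SD, n = 5 each), a difference of 0.16 (SE 0.27, 95% interval -0.44 to 0.75).

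Hspa1b had 3 probe sets, and the brightest stood at 12.44, 12.20, 13.76, 12.78 and 12.99 in wildtype islets and at 12.76, 13.24, 13.03, 13.41 and 13.00 in heterozygous islets. The order was close to that of Hspa1a, with wildtype replicate 3 at the top and wildtype replicates 1 and 2 at the bottom. The means of 12.84 ± 0.60 and 13.09 ± 0.25 differed by 0.25 (SE 0.26, interval -0.32 to 0.83), and the other 2 probe sets gave 0.26 and 0.21. Without wildtype replicate 3 the difference was 0.48 for Hspa1b (limma adjusted p = 0.9999, exact permutation p = 0.0635) and 0.40 for Hspa1a (exact permutation p = 0.0952). With single arrays left out it ran from 0.093 to 0.48 for Hspa1b and from 0.022 to 0.40 for Hspa1a. The probe set ending in x_at shares probes with other transcripts by the maker's naming, and the signals of these 2 near-identical genes may not be separable. The brightest probe sets of Hspa8 and Hspb1, which stand for those genes throughout, end in x_at too. Their values and correlations may therefore not be specific to the gene.

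Dnajb1 encodes the J-domain partner that brings substrates to HSP70 and starts its ATP cycle. It stood at 10.48, 10.82, 12.30, 11.35 and 11.87 in wildtype islets and at 11.13, 11.71, 11.55, 11.22 and 10.84 in heterozygous islets. Wildtype replicates held both the highest and the lowest array, 3.52-fold apart. The means of 11.36 ± 0.74 and 11.29 ± 0.34 differed by -0.074 (SE 0.32, interval -0.78 to 0.64). The second, dimmer probe set differed by -0.33 (SE 0.31), and without wildtype replicate 3 the brighter one stood at 0.16.

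Hsph1 encodes HSP110, which exchanges the nucleotide of HSP70 and prevents aggregation. Its brighter probe set stood at 10.12, 9.97, 11.28, 10.97 and 10.63 in wildtype islets and at 10.61, 9.75, 10.05, 10.50 and 10.64 in heterozygous islets. Wildtype replicates 3 and 4 lay above all heterozygous arrays, and heterozygous replicate 2 was the lowest of the 10. The means of 10.60 ± 0.55 and 10.31 ± 0.39 differed by -0.29 (SE 0.27, interval -0.88 to 0.31), with -0.21 (SE 0.31) for the other probe set. Without wildtype replicate 3 it was -0.11, and with single arrays left out it ran from -0.44 to -0.11.

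Hspb1, the small heat shock protein HSP27 that holds unfolded chains without using ATP, showed another order of mice. Its brighter probe set stood at 9.34, 9.77, 10.09, 9.68 and 9.05 in wildtype islets and at 8.85, 9.76, 9.54, 10.08 and 8.90 in heterozygous islets. Heterozygous replicates 1 and 5 were the lowest arrays, and heterozygous replicate 4 nearly equalled the highest, wildtype replicate 3. The means of 9.59 ± 0.40 and 9.43 ± 0.54 differed by -0.16 (SE 0.27, interval -0.75 to 0.43). The difference was -0.034 without wildtype replicate 3 and ran from -0.32 to -0.015 with single arrays left out. The other probe set differed by -0.19 (SE 0.33), with wildtype replicate 2 at 9.54 just above wildtype replicate 3 at 9.52 and heterozygous replicate 5 lowest.

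Bag3 encodes a co-chaperone that links HSP70 and small heat shock proteins to autophagy. It stood at 7.08, 7.72, 7.15, 7.93 and 7.08 in wildtype islets and at 7.04, 6.71, 7.11, 7.11 and 7.26 in heterozygous islets. Wildtype replicates 2 and 4 lay above all other arrays, while the other 3 wildtype arrays lay among the heterozygous ones. With means of 7.39 ± 0.40 and 7.05 ± 0.21 it had the widest difference of the 10 genes, -0.34 (SE 0.19, interval -0.76 to 0.07), and each of the 5 heterozygous mice had a value under the wildtype mean. The unadjusted limma p was 0.0955 and the exact permutation p was 0.175. Without wildtype replicate 4 the difference was -0.21.

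Hspa8 encodes the constitutive cytosolic HSP70. Its brightest probe set stood at 13.70, 13.85, 14.59, 14.20 and 14.11 in wildtype islets and at 14.11, 13.86, 14.05, 14.24 and 14.23 in heterozygous islets. Wildtype replicate 3 was again the highest and wildtype replicate 1 the lowest, 1.85-fold apart. The means of 14.09 ± 0.34 and 14.10 ± 0.15 differed by 0.0079 (SE 0.16, interval -0.35 to 0.36). The other 3 probe sets gave -0.061, -0.25 and 0.10. The last of these ran from 7.44 in wildtype replicate 2 to 10.40 in heterozygous replicate 2, and its correlation with the brightest probe set was 0.400 over the 10 arrays. Its r with the remaining probe sets was 0.486 and 0.565. Among the 3 Hspa8 probe sets without this one, which include the brightest, r was 0.732 to 0.936.

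Hsp90aa1 encodes the inducible cytosolic form of HSP90, which matures kinases and steroid receptors. Its brightest probe set stood at 12.74, 12.73, 13.25, 13.09 and 13.05 in wildtype islets and at 13.16, 12.87, 12.90, 13.29 and 13.24 in heterozygous islets. All values lay within 1.48-fold of each other, with wildtype replicates 1 and 2 lowest. The difference was 0.12 (SE 0.13, interval -0.18 to 0.42), and it ran from 0.059 without wildtype replicate 2 to 0.19 without wildtype replicate 3. Of its other 4 probe sets, 2 gave 0.26 and 0.035, and 2 lay at background in both genotypes with means of 1.59 and 2.94 or lower.

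Hspd1 and Hspe1 encode the mitochondrial chaperonin HSP60 and its lid HSP10, which fold imported proteins together. Hspd1 stood at 10.66, 10.54, 10.83, 10.88 and 10.80 in wildtype islets and at 10.86, 10.47, 10.41, 10.88 and 10.98 in heterozygous islets. The kept Hspe1 probe set stood at 9.56, 9.47, 10.06, 9.91 and 9.76 in wildtype islets and at 9.77, 9.72, 9.30, 9.67 and 10.12 in heterozygous islets. Heterozygous replicate 5 was the highest and heterozygous replicate 3 the lowest array for both. Hspd1 differed by -0.024 (SE 0.13, interval -0.32 to 0.27) and Hspe1 by -0.037 (SE 0.16, interval -0.39 to 0.32). A second Hspe1 probe set lay at background (3.73 and 3.69). The kept one ends in s_at, which by the maker's naming marks probes shared between transcripts. Its values and correlations may therefore not be specific to Hspe1.

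**Figure D2:**
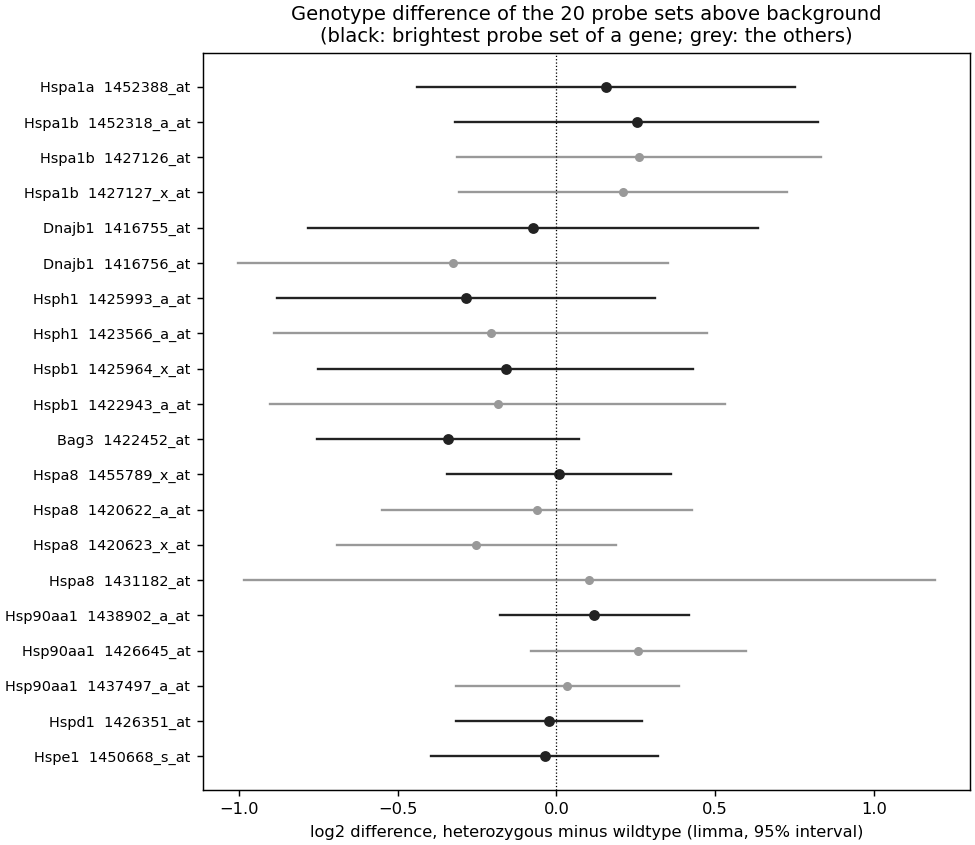
Log2 difference (heterozygous minus wildtype) with limma's 95% interval for the 20 heat shock probe sets above background, with the brightest of each gene in black and the others in grey. All intervals include 0, and they are narrowest for Hspd1 and Hsp90aa1 and widest for one of the other Hspa8 probe sets.

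The intervals bound the size of a genotype difference gene by gene. For Hspd1 the interval allows heterozygous levels between 0.803 and 1.20 times wildtype, and for Hsp90aa1 between 0.885 and 1.33 times. It is wider for 3 others, from 0.738 to 1.68 times for Hspa1a, from 0.801 to 1.77 times for Hspa1b and from 0.581 to 1.55 times for Dnajb1. Other probe sets gave other bounds, such as 0.946 to 1.51 times for 1 of Hsp90aa1 and 0.505 to 2.29 times for 1 of Hspa8. A p above the threshold does not show equal levels in the 2 genotypes. In whole islets, fewer cells of a type and less RNA per cell cannot be told apart.

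Mouse-to-mouse spread differed between the genes. The SD within genotype was 0.579 for Dnajb1, 0.480 for Hsph1, 0.479 for Hspa1a, 0.476 for Hspb1 and 0.460 for Hspa1b, which put these 5 genes between the 88.4th and 94.4th percentile of all 18567 probe sets. Bag3 stood at the 69.7th percentile. By their brightest probe sets the other 4 genes were nearer the middle or below it, with Hspe1 at the 57.3rd, Hspa8 at the 56.2nd, Hsp90aa1 at the 38.2nd and Hspd1 at the 36.7th percentile. For Hspa8 this depended on the probe set, since its others stood at the 74.6th, 81.2nd and 99.1st percentile. The median range over the 10 arrays was 1.23 for the 10 genes, beside 0.78 over all genes. The SD was larger in wildtype than in heterozygous islets for 7 of the 10 genes, beside 46.8% of all genes, and for 6 of 10 without wildtype replicate 3, beside 43.5%.

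**Figure D3:**
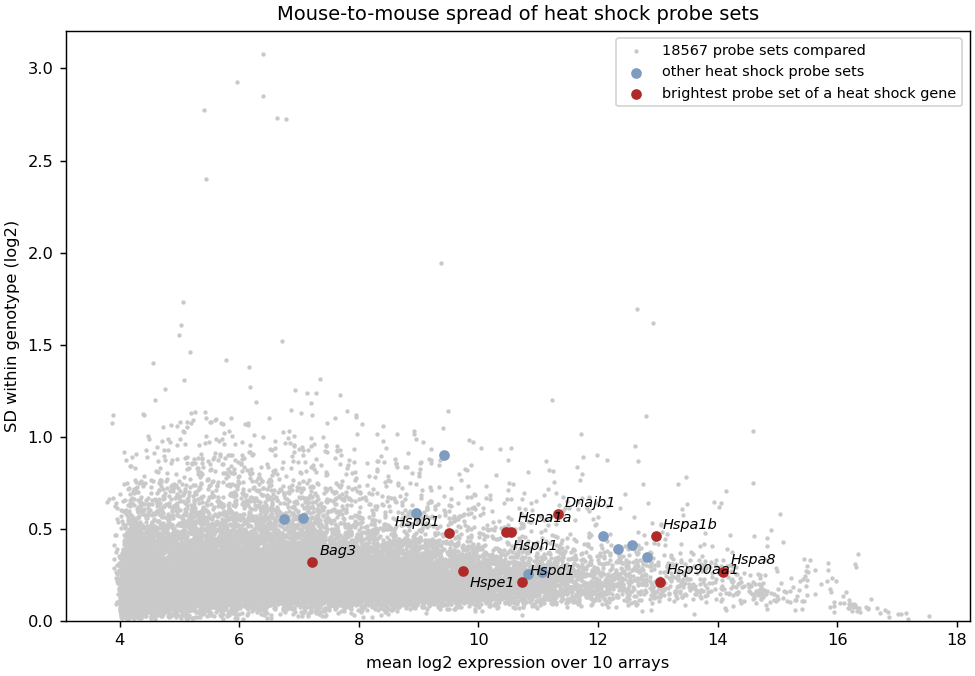
SD within genotype against mean log2 expression for the 18567 probe sets compared (grey), with the brightest probe set of each heat shock gene in red and their other probe sets in blue. Dnajb1, Hsph1, Hspa1a, Hspb1 and Hspa1b lie in the upper part of the cloud, while Hspd1 and Hsp90aa1 lie within its dense lower part.

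One wildtype mouse stood at the top for several of the genes. Wildtype replicate 3 was the highest of the 10 arrays for Hspa1a, Hspa1b, Hspa8, Dnajb1, Hsph1 and Hspb1, 6 of 10 genes by their brightest probe set, while it was the highest for 14.6% of all genes. Against the mean of the other 4 wildtype mice it stood 2.32-fold higher for Hspa1a, 2.25-fold for Dnajb1, 2.23-fold for Hspa1b, 1.81-fold for Hsph1, 1.55-fold for Hspb1 and 1.54-fold for Hspa8. It stood 1.31-fold higher for Hspe1, 1.27-fold for Hsp90aa1 and 1.08-fold for Hspd1, and at 0.809 times the others for Bag3. Without it, the wildtype SD was 0.30 in place of 0.60 for Hspa1a, 0.35 in place of 0.60 for Hspa1b and 0.61 in place of 0.74 for Dnajb1. At the other end, wildtype replicate 1 or 2 was the lowest array for 5 of the 10 genes, Hspa1a, Hspa1b, Hspa8, Dnajb1 and Hsp90aa1. The signals of Hspa1a and Hspa1b may not be separable. How often these arrays were lowest over all genes was not counted, so this is a description only.

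The same array was compared with measures that could move with handling or cell content. Its mean of 19 immediate-early genes, which respond within minutes to stimulation of cells, was 11.25, beside 10.31 to 11.14 in the other wildtype and 10.24 to 11.12 in heterozygous arrays, and 6 of these 19 genes were highest there. Its beta and alpha cell marker mean was the highest of all (13.02, others 12.41 to 12.95). Its endothelial marker mean was also the highest (8.35, others 7.30 to 8.23), with 5 of 8 endothelial markers highest there. Its mean of 9 acinar markers was 15.26, below the other wildtype arrays (15.31 to 15.66), and the excess of its control probe sets at the 3' over those at the 5' end, a mark of RNA length, was 3.27, inside the wildtype range of 3.21 to 3.37. The part of these measures in the high values was not tested for this single mouse.

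Across all mice, 90 relations between the 10 genes and 9 such measures were tested with 100000 permutations. None passed after adjustment by the Benjamini-Hochberg method, by Pearson's r or by Spearman's rho, and 4 had an unadjusted Pearson p under 0.05. The strongest with the immediate-early mean was that of Dnajb1 (r = 0.704, rho = 0.576, permutation p = 0.0227, adjusted p = 0.628). It was 0.419 without wildtype replicate 1 and heterozygous replicate 5, the 2 arrays whose immediate-early mean lay farthest from the median. Such arrays were chosen anew for each relation, here by the measure and for gene pairs below by 1 of the 2 genes. For Hspa1a and Hspb1 r with the immediate-early mean was 0.597 and 0.600 (0.258 and 0.483 without its 2 farthest arrays). For Hspa1b, Hsph1 and Hsp90aa1 it was 0.316, 0.178 and 0.019. For Hspa8, Bag3, Hspe1 and Hspd1 it was 0.323, 0.165, -0.00745 and -0.261. Hsph1, Hspe1 and Hspd1 instead had their highest r with the beta and alpha cell mean (0.732, 0.731 and 0.687, adjusted p = 0.628 each). Without wildtype replicate 3 and heterozygous replicate 5, the 2 farthest arrays for that mean, these were 0.570, 0.381 and 0.627. Hspa8 and Hsp90aa1 also had their highest r with it (0.560 and 0.544), and these were 0.055 and 0.244 without those arrays.

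The marker lists themselves differed in how many members were on the lower side. All 10 stromal markers had a lower mean in heterozygous islets (Col3a1 -1.08, SE 0.31, and Dcn -0.64, SE 0.19), 7 of 8 endothelial (Egfl7 -0.61, SE 0.24, and Esam -0.53, SE 0.17), 5 of 7 myeloid (Cd14 -0.64, SE 0.20, and Adgre1 -0.57, SE 0.21) and 5 of 5 duct markers (Krt19 -0.62, SE 0.29, and Epcam -0.14, SE 0.15). All 9 acinar markers (Ctrc -0.63, SE 0.61, and Cela2a -0.044, SE 0.075) and 7 of 11 beta and alpha cell markers (Irx1 -0.45, SE 0.14, and Gcg -0.085, SE 0.078) were on the lower side too, while both lymphocyte markers were on the higher side (Ms4a1 1.03, SE 0.66, and Cd79a 0.17, SE 0.36). The stromal mean was 9.47 to 10.14 in 4 heterozygous arrays but 11.07 in heterozygous replicate 4, above the wildtype arrays (10.36 to 11.04). With limma 0 of these markers passed an adjusted p of 0.05, and 5 stromal, 2 endothelial, 2 myeloid and 1 beta or alpha cell marker had an unadjusted p under 0.05, beside 4.09% of all probe sets (1.52% on the lower side). Of the heat shock genes, Bag3 had its highest r with the duct marker mean (r = 0.614, rho = 0.370, adjusted Pearson permutation p = 0.628). Within genotypes this r was 0.967 in wildtype and -0.706 in heterozygous mice (5 each). The part of cell content in the Bag3 value was not tested.

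The genes varied together from mouse to mouse in part. Of 45 gene pairs, 37 had r above 0 over the 10 arrays, with a median of 0.407. By Pearson's r, 7 passed a permutation p adjusted over the 45 pairs, 2 of them also by Spearman's rho. The median r was 0.213 without wildtype replicate 3 and 0.158 without wildtype replicates 1 and 3. Within genotypes all 7 had r above 0, at 0.883 to 0.978 in wildtype and 0.632 to 0.958 in heterozygous mice. Some other pairs had opposite signs in the 2 genotypes, with few mice in each. For Dnajb1 with Hspa8, Hsph1, Hsp90aa1 and Hspd1, r was 0.935, 0.860, 0.934 and 0.696 in wildtype mice. In heterozygous mice it was -0.855, -0.948, -0.876 and -0.937. The closest pair was Hspa1a and Hspa1b (r = 0.923, rho = 0.903, permutation p = 0.00026, adjusted p = 0.00698). Without wildtype replicates 1 and 3, the 2 arrays farthest from the median, it stood at 0.842, and after removing the genotype means at 0.925. Since the 2 genes are near-identical, part of this r may come from shared signal, which was not tested. It also passed with each of the 10 arrays left out in turn.

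Around Hspa8, the pair with Hsp90aa1 had r = 0.869 and rho = 0.939 (permutation p = 0.00031, adjusted p = 0.00698), and the pair with Hsph1 had r = 0.866 and rho = 0.782 (adjusted p = 0.0189, and 0.0900 for rho). Without wildtype replicates 1 and 3, the 2 farthest arrays for Hspa8, these stood at 0.917 and 0.864. Dnajb1 followed Hspa1a (r = 0.846, rho = 0.818, adjusted p = 0.0282), a relation that stood at 0.608 without wildtype replicates 1 and 3. Hspd1 was tied to Hsp90aa1 (0.805), Hsph1 (0.796) and Hspe1 (0.792), with an adjusted p of 0.0440 for each. The Hspd1 and Hspe1 pair had rho = 0.770 (adjusted p = 0.0951 for rho). Its r stood at 0.814 without heterozygous replicates 2 and 3, the 2 farthest arrays for Hspd1.

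Hspb1 and Bag3 took no part in the 7 pairs. Hspb1 had its highest r with Hspa1a (0.550) and Bag3 with Hsph1 (0.308), while Bag3 stood at -0.462 with Hspa1b and -0.380 with Hspa1a. The number of pairs that passed depended on single arrays. It was 2 without wildtype replicate 1 or 2, 3 without wildtype replicate 3 or heterozygous replicate 5, 4 without wildtype replicate 4 or 5 or heterozygous replicate 1 or 3, and 9 without heterozygous replicate 2 or 4 (exact permutation tests, n = 9). The pair of Hspa8 and Hsp90aa1 passed in 9 of these 10 sets, that of Hspa8 and Hsph1 in 8, that of Hspa1a and Dnajb1 in 6, that of Hsph1 and Hspd1 in 2, that of Hspd1 and Hspe1 in 2, and that of Hsp90aa1 and Hspd1 in 0. Arrays share their normalization, and genes on one array are read from the same RNA.

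**Figure D4:**
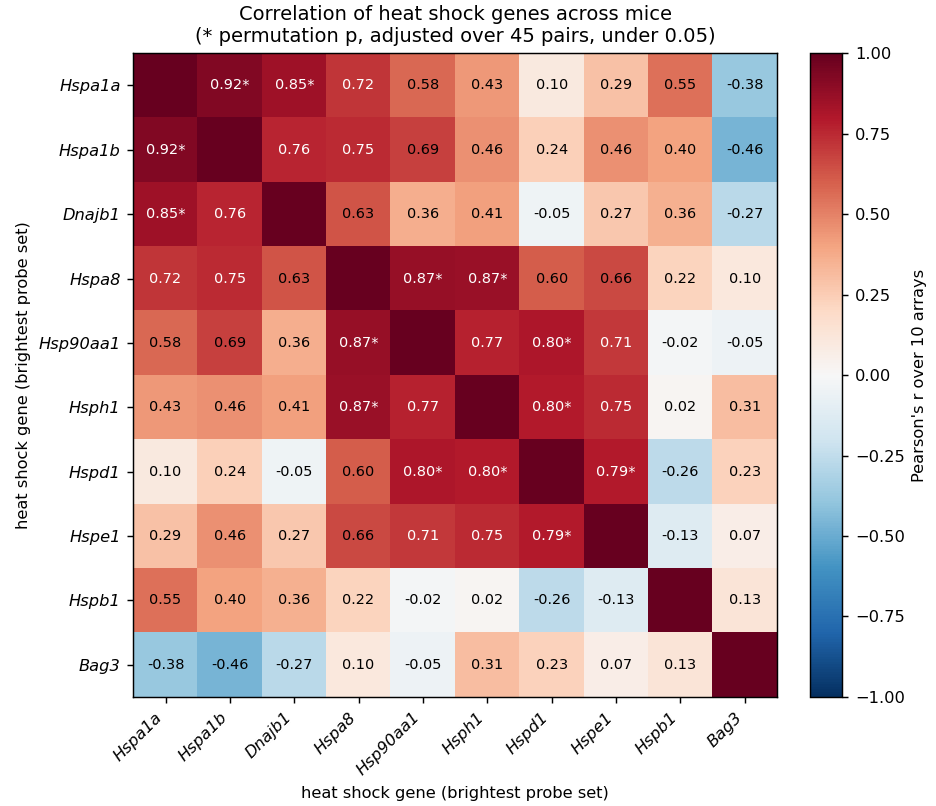
Pearson's r over the 10 arrays for each pair of heat shock genes, with the brightest probe set per gene and an asterisk where the permutation p adjusted over 45 pairs was under 0.05. High values join Hspa1a, Hspa1b and Dnajb1 and also Hspa8, Hsp90aa1, Hsph1, Hspd1 and Hspe1. Hspa8 also stood at 0.746 with Hspa1b and 0.717 with Hspa1a, which did not pass (adjusted permutation p = 0.0593 and 0.0769). The value with Hspa1b was 0.453 without wildtype replicates 2 and 3, and that with Hspa1a was 0.169 without wildtype replicates 1 and 3, the arrays farthest from the median in each case.

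Other chaperone and heat shock genes were read from lists. A gene counted as measured if a probe set named for it alone lay above background, so a gene not measured may still be on the array. Of 98 listed genes outside the 10, 78 were measured, 35 with a higher and 43 with a lower mean in heterozygous islets and a median difference of -0.021. With limma, 0 passed an adjusted p of 0.05 and 0 had an unadjusted p under 0.05, where 4.09% of all probe sets did. Wildtype replicate 3 was the highest array for 12 of the 78, or 15.4%, which is close to its 14.6% over all genes.

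Of 14 J-domain genes 5 were on the higher and 9 on the lower side, with Dnajb4 at -0.18 (SE 0.16) and Dnaja1 at -0.19 (SE 0.19). Of 12 HSP90 and co-chaperone genes 4 were higher and 8 lower, with Ahsa2, an activator of HSP90's ATPase, at -0.20 (SE 0.10) and St13 at 0.12 (SE 0.088). Of 8 other HSP70 family genes 5 were higher and 3 lower, with Hspa4 at 0.073 (SE 0.098) and Hspa4l at 0.11 (SE 0.17). Of 7 BAG and nucleotide exchange factor genes 5 were higher and 2 lower, with Bag5 at -0.23 (SE 0.14) and Hspbp1 at 0.27 (SE 0.20). For Dnajb4, Dnaja1, Hspa4 and Hspa4l 1 other probe set had the opposite sign.

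Of 13 genes of the cytosolic chaperonin CCT and of prefoldin 5 were higher and 8 lower, with Pfdn1 at 0.27 (SE 0.17) and Pfdn2 at -0.19 (SE 0.15). Of 11 mitochondrial chaperone and protease genes 5 were higher and 6 lower, with Timm44 at -0.16 (SE 0.14) and Yme1l1 at 0.072 (SE 0.098), each with 1 other probe set of the opposite sign. Of small heat shock genes other than Hspb1, 3 were measured and all 3 were on the higher side, with Cryab at 0.22 (SE 0.25) and Hspb8 at 0.043 (SE 0.13), whose other probe set had the opposite sign. Of 14 other heat-inducible genes 2 were higher and 12 lower, with the collagen chaperone gene Serpinh1 at -0.33 (SE 0.19) and Atf3 at -0.40 (SE 0.29). Stromal markers, which include the collagens that Serpinh1's product folds, had a lower group mean for each of the 10 genes, with a list mean of 10.72 ± 0.29 against 10.04 ± 0.63 (SD, 5 wildtype and 5 heterozygous mice). Heterozygous replicate 4 stood apart with the highest stromal mean of the 10 arrays, 11.07, and their part in the Serpinh1 value was not tested. Of the heat shock factor list only Hsbp1, which binds heat shock factor, was measured, at 0.13 (SE 0.15), with its other probe set of the opposite sign.

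The endoplasmic reticulum chaperone list had 6 higher and 8 lower of 14 genes, with Dnajc3 at 0.36 (SE 0.15) and Dnajb9 at -0.29 (SE 0.22). Of the 19 immediate-early genes 4 were higher and 15 lower, with Klf4 at -0.69 (SE 0.22) and Dusp1 at -0.31 (SE 0.14). In these lists 0 genes passed an adjusted p of 0.05 with limma, and 1 and 2 had an unadjusted p under 0.05, beside 4.09% of all probe sets (2.57% higher and 1.52% lower).

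The genes whose values over the 10 arrays were most like the mean of Hspa1a, Hspa1b, Dnajb1 and Hsph1, each centred, were sought among 10528 other genes. They were Klhl17 (r = 0.944, rho = 0.939), D2hgdh (0.927), Slc38a6 (0.926), Nfyc (0.905), Ezh1 (0.899) and Cyb5d1 (0.896), and the least like were Rassf7 (-0.884), Bzw1 (-0.862) and Tenm4 (-0.862). These are the extremes of many values and are given as a description over 10 arrays. Hsph1 had r = 0.430, 0.457 and 0.407 with Hspa1a, Hspa1b and Dnajb1 over all arrays. Without wildtype replicate 3 these were 0.025, 0.127 and 0.041. Hspa1a and Hspa1b, whose signals may not be separable, each count in the mean. Klhl17 ran from 8.82 in wildtype replicate 1 to 9.53 in wildtype replicate 3. Of the listed chaperone genes Dnaja4, a J-domain partner of HSP70, stood highest in this order at rank 19 (r = 0.831, and 0.660 without wildtype replicate 3). Of the immediate-early genes it was Klf6 at rank 21 (r = 0.829, and 0.779 without that array).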

How the data were processed

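Per the labels' protocols, 100 ng of total RNA from about 100 islets of each mouse was amplified in 2 cycles and labelled with biotin; this shortens transcripts and favours probes near the 3' end. Deposited log2 values, 1 per probe set and array, were made by the authors with GCRMA, per the submitters' processing notes. This method draws weak signals together near background. Its version is not stated there, and the log2 scale was read from the values (0.654 to 17.58).

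Probe sets took gene names from the platform annotation after 64 controls were left out (34945 with 1 symbol, 932 with several and not named, 9160 unnamed here). Those above 4 on 5 or more of the 10 arrays were kept. Genotypes were compared with limma (3.58.1, lmFit and eBayes; R 4.3.3), two-sided, with Benjamini-Hochberg adjustment over all 18567 kept probe sets at 0.05. The probe set with the highest mean stood for a gene. Exact permutation tests used all 252 assignments of arrays (fewer with an array left out), and correlations 100000 permutations. The fit was tested on simulated data. Named are the 10 genes with every probe set, the 2 genes of each other list with the smallest p, and the 6 most and 3 least similar genes; Dnaja4 and Klf6 were picked from their values. The genes and lists were chosen with earlier results of these data known. The number of arrays limits the precision.

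Alternatives covered the filter on dim probe sets (none, or above 6), quantile normalization or centring on the median, another variance prior, the replicate number as a block, the 3' minus 5' covariate, left-out arrays and the mean of a gene's probe sets. Plots were made in Python 3.11.15 (matplotlib 3.10.9).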

Additional observations from a re-analysis of the deposited data

How the results depend on the processing

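Under the 19 alternatives, 0 of the heat shock probe sets passed an adjusted p of 0.05 (limma), and the lowest adjusted p of a gene was 0.954. The number of genes with a higher mean, 4, ran from 3 to 6. Of 190 gene values under an alternative, 172 kept their direction and 18 turned sign, all for Hspa8, Dnajb1, Hspd1 and Hspe1, whose differences are near 0; the cause was not tested. Hspa8 stood at -0.0061 after median centring, -0.00037 with the 3' minus 5' difference as a covariate and -0.051 as the mean of its probe sets, and with that covariate Hspd1 stood at 0.030 and Hspe1 at 0.092. With single arrays left out, Hspa8 ran from -0.091 to 0.13, Dnajb1 from -0.29 to 0.16, Hspd1 from -0.089 to 0.054 and Hspe1 from -0.14 to 0.068. Without heterozygous replicates 2 and 5, Hspa1b stood at 0.23, Bag3 at -0.30 and Hspe1 at -0.17. The count of 7 correlated pairs was 8 after removing the genotype means, 1 without wildtype replicates 1 and 3, the 2 farthest from the median, and 2 to 9 with single arrays left out, an alternative chosen after seeing the data; these sets hold fewer arrays. Hspa1b without wildtype replicate 3 was the 1 value of 190 with an unadjusted limma p under 0.05. With the replicate number as a block 0 probe sets passed, 786 had an unadjusted p under 0.05 (760 without it). The labels do not say whether same-numbered mice share a litter. Deviations of same-numbered arrays correlated at -0.28 to 0.11, which cannot settle this with so few mice.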
